A study of Mus musculus with 435 samples.

Results

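Kif21a, the gene of a kinesin motor, was read in mouse liver by 1 probe among 17280 array positions. The probe at position 13503 is the single entry with that symbol (Entrez gene 16564) in the platform's gene table, which names 13409 genes on probes with 1 symbol each. The gene was chosen by its difference between diets in C57 and in AJ on these same arrays. Its diet differences, and the gap between the strains in that difference, are therefore given as a description with no test. Its strain difference, its course over the weeks and the probes that vary with it were not used in the choice.

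The series holds 435 2-colour arrays of liver RNA from AJ mice (218 arrays) and C57 mice (217 arrays), inbred strains fed diets high or low in fat. The labels give strain, diet and week, which make 44 groups of about 10 arrays over 11 weekly times from week 0 to week 11, and they give neither age, sex nor the composition of either diet. Every liver sample carried Cy5 and was hybridised against a common Cy3 pool of C57 tissue RNA, made of 26% liver, 26% kidney, 13% brown fat, 12% skeletal muscle, 6% lung, 6% hypothalamus, 5% white fat, 4% brain, 2% testes and 1% heart. The comparisons used 350 arrays in 36 groups of 9 weeks (1, 3, 4, 5, 6, 7, 9, 10 and 11), with week 8 left out because 28 of its 40 arrays correlated with the typical array below 0.15. A level is the log2 of liver over pool minus the median of that array, so 0 is the middle probe of the array. The labels do not say which arrays share a mouse, so the spread between arrays may be partly technical.

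Kinesins are motor proteins that walk along microtubules, the hollow tubulin filaments that position organelles and carry cargo in the cell. KIF21A belongs to the kinesin-4 family, whose members also restrain microtubule growth at the plus end. It is held at the cell cortex near focal adhesions by KANK1 and liprin-beta-1, it binds the Golgi exchange factor BIG1, and it is abundant in neurons. In people, mutations in the gene cause congenital fibrosis of the extraocular muscles.

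The RefSeq promoter window of the gene is shown because its transcript is the molecule that the probe reads. It spans chr15:91049902-91050201 of GRCm38.p6 on the minus strand, from 250 bases before to 50 bases after 1 start. Its capitals mark the GC box GGGCGG. The gene is listed from 90933275 to 91050382 with 39 transcripts, so the window is not at its outermost end and transcripts can start elsewhere. The array's own genome build is not given in the sources used here.
Kif21a promoter: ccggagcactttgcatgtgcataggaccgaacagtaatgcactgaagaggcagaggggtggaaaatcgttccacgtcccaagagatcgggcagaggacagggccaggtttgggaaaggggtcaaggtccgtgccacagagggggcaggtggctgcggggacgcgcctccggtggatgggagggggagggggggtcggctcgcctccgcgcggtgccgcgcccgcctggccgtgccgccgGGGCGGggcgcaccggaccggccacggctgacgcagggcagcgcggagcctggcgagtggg
The window is 71% G and C, above the GC content of 91.8% of all promoters in the RefSeq table (median 52.7%), and it holds 30 CpG pairs against a median of 7. The GC box occurred 1 time, and 35.7% of 32851 promoter windows of this length hold it on either strand. No match was found on either strand for CCAAT (in 37.4% of windows), TATAAA (13.6%) or the E-box CACGTG (7.15%). These are matches of letters only.

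Kif21a was above the middle probe in livers of the high-fat diet and near it in livers of the low-fat diet. Averaged over the 9 weekly group means, the log2 level was 0.90 ± 0.33 (SD, n = 9 weeks) in C57 on high-fat diet and 0.58 ± 0.35 in AJ on high-fat diet. It was 0.05 ± 0.28 in C57 on low-fat diet and -0.03 ± 0.22 in AJ on low-fat diet. On a linear scale these means are 1.86, 1.49, 1.04 and 0.98 times the array's middle ratio. The C57 high-fat group was the highest of the 4 in 9 of 9 weeks, and the AJ low-fat group was the lowest in 7. Next to each other in this order, the strains on high-fat diet differed by less than either SD over weeks, as did the strains on low-fat diet, while the step from AJ on high-fat to C57 on low-fat diet exceeded both SDs. The groups share their weeks, so these SDs do not measure the spread of the gap itself. Week by week, C57 exceeded AJ by 0.32 ± 0.16 (SD of weekly differences) on high-fat diet and by 0.09 ± 0.29 on low-fat diet. In bulk liver, fewer cells that hold the transcript and less transcript per cell cannot be told apart.

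The probe gave a value above 0 on 304 of the 350 arrays (86.9%), on 154 of 175 high-fat arrays (88%) and on 150 of 175 low-fat arrays (85.7%). Arrays with a Kif21a value had a median of 11693 measured probes and those without it a median of 7695.5. On 2 arrays, both low-fat, the deposited ratio was at or below 0 and was counted as not measured. The level lay above the middle probe on 89.6% of the measured high-fat arrays and on 57.3% of the measured low-fat arrays.

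In C57, every weekly mean on high-fat diet was higher than that on low-fat diet. At week 1 the high-fat arrays had a lowest level of -0.19, a median of 0.87 and a highest of 1.39, against -0.82, -0.12 and 0.60 on low-fat diet (10 arrays each). At week 3 the levels were -0.77, 0.56 and 0.93 on 10 high-fat arrays and -1.18, -0.12 and 0.67 on 9 low-fat arrays. The groups overlapped at both times, and 7 and 4 high-fat arrays stood above all low-fat arrays of the week. Week 4 is the thinnest group, with Kif21a measured on 3 of 10 high-fat arrays, at -1.02, 1.34 and 1.37. The 6 low-fat arrays of that week had a lowest level of -0.61, a median of 0.16 and a highest of 1.02, so that 2 of the 3 high-fat arrays lay above them all and the other below them all. Week 5 was the single time at which the groups did not overlap. Its 10 high-fat arrays had a lowest level of 0.51, a median of 0.98 and a highest of 1.90, and its 10 low-fat arrays lay between -0.07 and 0.41 with a median of 0.26.

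The later C57 weeks kept this order of the means, with the widest groups at weeks 10 and 11. At week 6 the 8 high-fat arrays had a lowest level of 0.52, a median of 1.13 and a highest of 2.19, and the 5 low-fat arrays were at -0.15, -0.14, 0.08, 0.35 and 0.64. At week 7 the high-fat levels were 0.44, 0.71 and 1.36 (8 arrays) and the low-fat levels -0.04, 0.34 and 0.72 (10 arrays). Of the high-fat arrays, 7 at week 6 and 4 at week 7 were above all low-fat arrays. At week 9 the lowest, median and highest levels were 0.13, 0.87 and 1.67 on high-fat diet (8 arrays) and -0.21, 0.30 and 0.45 on low-fat diet (9 arrays). At week 10 they were 0.40, 1.43 and 2.35 (9 arrays) and -3.72, 0.28 and 0.44 (8 arrays). Most low-fat arrays of week 10 were near the middle probe, but 2 were far below, at -3.72 and -1.97, the lowest Kif21a values of all 304. At week 11 the levels were 0.15, 1.27 and 2.53 (10 arrays) and -1.35, 0.42 and 1.41 (7 arrays), and 4 high-fat arrays stood above the low-fat range.

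In AJ too, every weekly mean on high-fat diet was higher than that on low-fat diet, and the groups overlapped in all 9 weeks. At week 1 the 6 high-fat arrays had a lowest level of -0.54, a median of 0.37 and a highest of 0.81, and the 8 low-fat arrays had -1.03, -0.23 and 0.95. At week 3 the levels were -0.28, 0.00 and 0.24 (10 arrays) on high-fat and -0.82, -0.23 and 0.43 (9 arrays) on low-fat diet. No high-fat array of these weeks stood above all low-fat arrays. At week 4 the levels were -0.16, 0.61 and 1.07 on high-fat and -1.75, -0.05 and 0.42 on low-fat diet (9 arrays each). At week 5 they were -0.22, 0.64 and 1.34 (8 arrays) and -0.42, -0.16 and 0.36 (9 arrays). Above the whole low-fat range were 5 high-fat arrays at week 4 and 6 at week 5. At week 6 the 8 high-fat arrays had 0.31, 0.86 and 1.34, inside the span of the 5 measured low-fat arrays, which were at -0.78, -0.44, 0.12, 0.95 and 1.38.

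Between week 7 and week 11 the AJ high-fat median went from 0.46 to 1.15, while the low-fat median stayed near the middle probe. At week 7 the lowest, median and highest levels were 0.11, 0.46 and 0.97 on high-fat (9 arrays) and -0.13, 0.17 and 0.61 on low-fat diet (10 arrays). At week 9 they were 0.25, 0.64 and 1.08 against -0.10, 0.16 and 0.45 (10 arrays each), and 8 high-fat arrays lay above the whole low-fat range. Both groups of that week were tight, with SDs of 0.24 and 0.16. At week 10 the levels were -0.10, 0.96 and 1.46 on high-fat and -0.91, -0.06 and 0.87 on low-fat diet (8 arrays each). At week 11 they were 0.56, 1.15 and 1.61 (10 arrays) against -1.40, 0.04 and 1.27 (8 arrays). All 10 high-fat arrays of week 11 were above the middle probe, as were 4 of the 8 low-fat arrays.

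**Figure D1:**
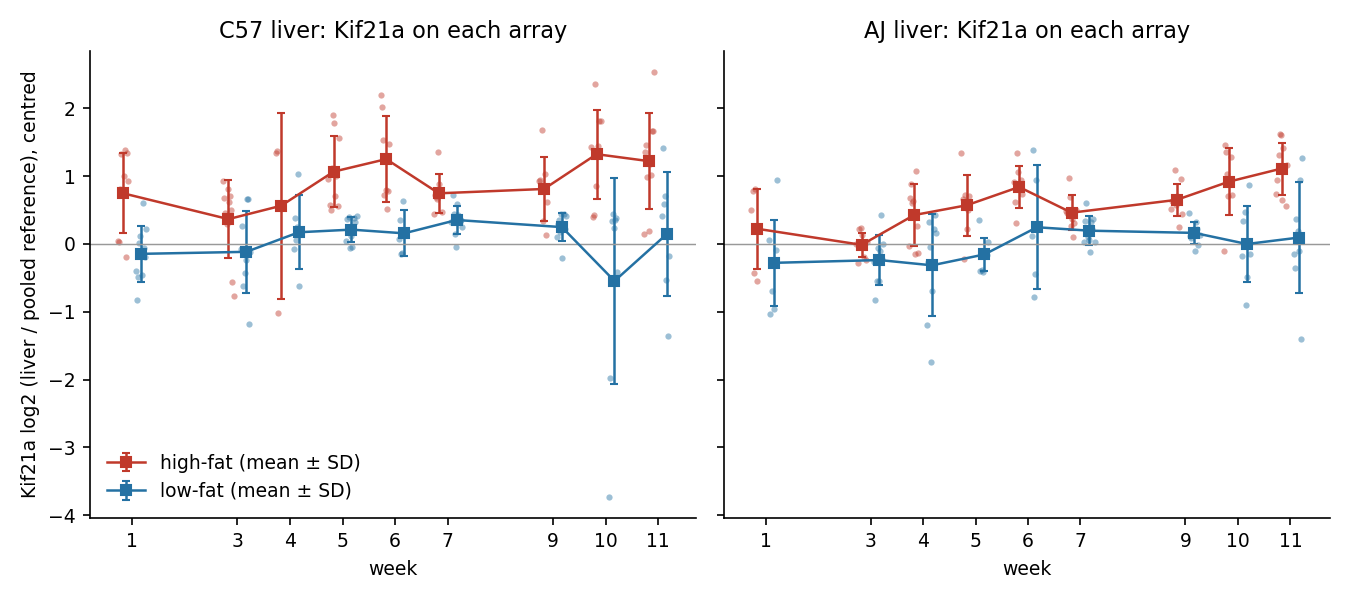
Log2 ratio of Kif21a in liver over the pooled reference on every measured array (points), by week, for C57 (left) and AJ (right), with the mean and SD of each high-fat (red) and low-fat (blue) group. The high-fat mean lies above the low-fat mean in all 9 weeks of each strain, and 2 C57 low-fat arrays of week 10 lie far below the rest, at -3.72 and -1.97.

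Subtracted week by week, the diet difference of Kif21a (high-fat minus low-fat mean log2 level) was above 0 in 9 of 9 weeks in each strain. In C57 it ran from 0.39 at week 4 to 1.87 at week 10, with a mean of 0.85 ± 0.47 (SD, n = 9 weeks) and a median of 0.85. In AJ it ran from 0.22 at week 3 to 1.02 at week 11, with a mean of 0.61 ± 0.27 and a median of 0.59. The C57 value of week 10 holds both very low arrays. By group medians that week gave 1.15, and without those arrays the C57 mean was 0.76. Over all weeks, 51 of 76 measured C57 high-fat arrays and 30 of 78 in AJ were above every low-fat array of their week. The C57 difference exceeded the AJ difference by 0.24 ± 0.15 (SE) on average.

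Diet moved few probes of these livers past the threshold used throughout, a Benjamini-Hochberg adjusted p under 0.05 in limma over 6780 probes. In C57, 12 probes passed (0.177%, 10 of them higher on high-fat diet), and in AJ 2 probes passed (0.0295%, both higher). Because Kif21a was chosen on these contrasts, nothing is read from its place among them. Both counts move with single weeks: without week 1, 5, 9 or 11 the C57 count was 4, 5, 4 or 7. In AJ the count was 0 without week 1, 4, 6 or 11, and 1 without week 5, 9 or 10.

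**Figure D2:**
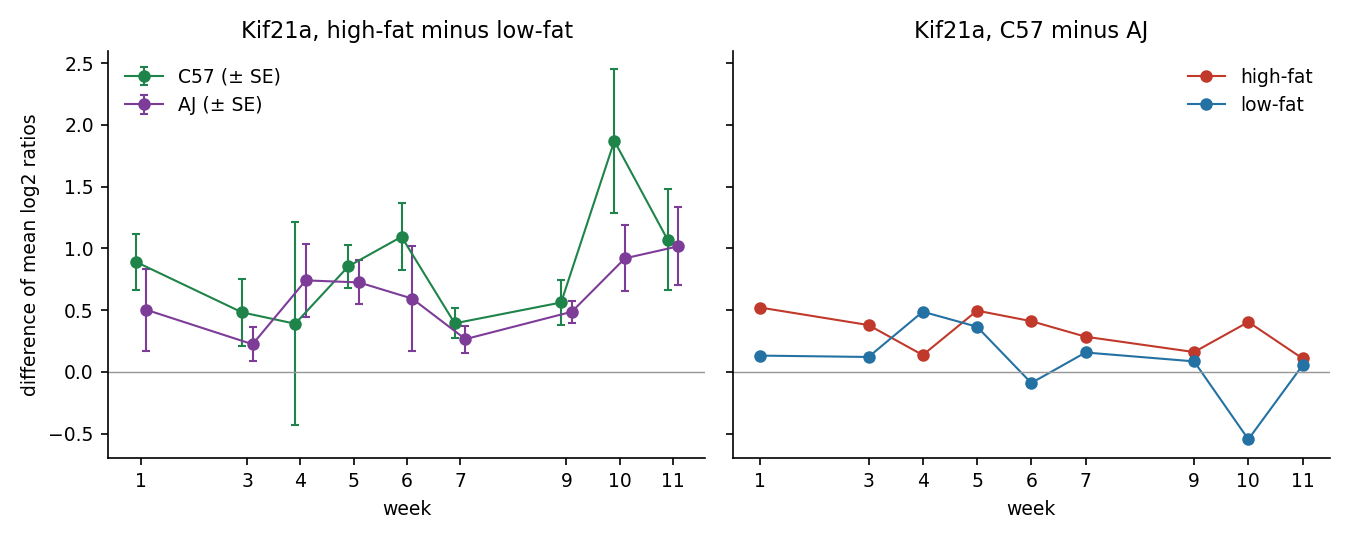
Weekly differences of the mean Kif21a log2 ratio: high-fat over low-fat, by strain (C57, AJ), with standard errors from the arrays (left), and C57 minus AJ on each diet (right). All 18 diet differences are above 0, from 0.22 to 1.87, and the strain difference is above 0 in 9 of 9 weeks on high-fat diet and in 7 of 9 on low-fat diet.

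The weeks left out of these means gave few or unlike values. At week 8 the C57 difference was 0.83 ± 0.75 (SE, 4 high-fat and 5 low-fat arrays measured), and the AJ difference was -0.28 ± 0.26 (8 arrays on each diet). This was the single week at which either strain had a lower mean on high-fat diet. All AJ low-fat arrays of week 8 correlated with the typical array below 0.15, and all C57 low-fat arrays above it. Among measured C57 high-fat arrays, the highest level, 3.26, came from an array with a correlation of 0.66. The others had correlations of 0.07, 0.07 and 0.05. In AJ on high-fat diet, the array at 1.09 was the single one above 0.15. Neither difference therefore compares like arrays. At week 0, Kif21a was measured on 2 high-fat and 1 low-fat array of AJ and on 3 and 1 of C57, too few to compare.

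Whether the strains differ in Kif21a was tested on the weekly means averaged over the diets. C57 was higher than AJ by 0.20 ± 0.08 (SE, 95% interval 0.05 to 0.36), with an unadjusted limma p of 0.0125 and an adjusted p of 0.103, and so did not pass. In this comparison 547 of 6780 probes passed (8.07%), 333 of them higher in C57. On high-fat diet the C57 mean was the higher in 9 of 9 weeks, by 0.11 at week 11 to 0.52 at week 1 and by 0.32 ± 0.16 (SD over weeks) on average. On low-fat diet C57 was higher in 7 of 9 weeks, by 0.09 ± 0.29 on average, with 0.49 at week 4 and -0.55 at week 10. Without the 2 lowest C57 arrays the week 10 value was 0.22, C57 was higher in 8 of 9 weeks, and the average was 0.17 ± 0.17. Arrays of the strains overlapped in all 18 of these weekly comparisons.

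Whether the strain difference passed changed with the 2 low C57 arrays of week 10. These arrays were picked by their Kif21a values after the data were seen, so leaving them out could only raise the C57 mean. The p-value without them is therefore a description and no separate test. Without them the strain difference was 0.25, with a limma adjusted p of 0.00732, and without week 10 it was 0.24, with an adjusted p of 0.016. With group medians in place of means it was 0.29 (limma adjusted p = 0.00144), and after quantile normalization it was 0.25 (adjusted p = 0.00457). The deposited ratios of these arrays for Kif21a were 0.0801 and 0.234. Their correlations with the typical array were 0.73 and 0.57, and they held 12226 and 5059 measured probes. What sets them apart was not tested.

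Kif21a levels tended upward over the weeks without passing the test. The mean of the 4 strain and diet groups was 0.00 at week 3 and 0.64 at week 11, and the fitted slope was 0.050 ± 0.019 per week (SE, 95% interval 0.009 to 0.091, limma adjusted p = 0.134). Fitted by group, with no test, the slope was 0.089 per week in AJ and 0.064 in C57 on high-fat diet, and 0.046 and 0.00 on low-fat diet. The C57 low-fat slope was 0.033 without the 2 lowest arrays of week 10. On high-fat diet the mean of the strains went from 0.18 at week 3 through 1.05 at week 6 and 0.60 at week 7 to 1.17 at week 11. On low-fat diet it stayed between -0.27 (week 10, or 0.11 without those arrays) and 0.27 (week 7). For comparison, 266 of 6780 probes had a slope past the threshold (3.92%), 202 of them downward. That count is fragile: it was 0 without week 3 or week 10, 17 without week 4 or week 11, 54 without week 1, 87 without week 7 and 579 without week 5.

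The other kinesin motors had diet differences near the middle of all probes. Of 42 other kinesin motors, 29 have a probe and 10 were measured often enough to be tested. On either diet contrast 0 of 10 passed in limma, where 0.177% of all probes passed in C57 and 0.0295% in AJ, so that none is the count these shares give. Their median difference was 0.02 in C57 and 0.00 in AJ, beside medians of 0.00 and -0.01 over all tested probes. An unadjusted limma p under 0.05 for diet was reached by 425 of all 6780 probes in C57 and by 378 in AJ. A share of 0.05 falls under this cut where no probe differs, so these counts name no set of differing probes. Among the 3 motors measured most often, Kif5a, a neuronal cargo motor, differed by 0.06 in C57 and 0.08 in AJ. Kif16b, an endosome motor, differed by 0.05 and 0.13, and Kif3a, a motor of cilia, by -0.03 and -0.14. The close relative Kif21b has no probe in the gene table, and the kinesin-4 members Kif4 and Kif27 were measured too rarely to be tested.

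Between the strains, 2 of the 10 motors were higher in C57 and 0 lower, where 4.91% of all probes were higher and 3.16% lower, and nothing particular to the motors is read from this. Kif3a was higher by 0.35 ± 0.09 (SE, limma adjusted p = 0.0077) and Kif3b, its partner in the heterotrimeric kinesin-2, by 0.20 ± 0.05 (adjusted p = 0.0129). The size of the Kif3b difference is that of Kif21a, whose SE is larger. Kifc3, a minus-end motor, fell by 0.10 per week (limma adjusted p = 0.031) and was the single motor with a slope past the threshold. Of the 4 tested accessory chains, Klc4, a kinesin-1 light chain, was higher in C57 by 0.23 (limma adjusted p = 0.0475), and Klc1, Klc3 and Kifap3 did not pass in any contrast.

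Few of the cortical partners of KIF21A could be followed. Of 11 listed, 5 have a probe and 2 were tested, and neither Kank1 nor Arfgef1, the gene of BIG1, has a probe in the gene table. Kank2, a relative of Kank1, had a slope of 0.075 ± 0.018 per week (SE, limma adjusted p = 0.0443), with diet differences of -0.03 in C57 and -0.05 in AJ. Ppfibp1, which encodes liprin-beta-1, did not pass in any contrast, at -0.12 for diet in each strain and -0.10 between strains.

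The tubulin track and the minus-end motor dynein came next. None of 11 dynein and dynactin genes, 8 tubulins and 9 microtubule-associated proteins passed for diet in limma in either strain, where 0.177% (C57) and 0.0295% (AJ) of all probes did. Their median diet differences in C57 were 0.07, -0.02 and -0.06, and in AJ 0.05, 0.04 and 0.02. The dynactin subunits Dctn1, Dctn2 and Dctn6 had C57 differences of -0.19, 0.23 and 0.01, none of them past the test. The tubulins Tuba4a, Tubb2b and Tube1 had 0.03, -0.03 and 0.04, and the plus-end and tubulin-binding proteins Clasp2 and Stmn4 had -0.10 and 0.04.

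For strain, 3 of these 28 genes passed (8.07% of all probes did) and for the slope 1 of 28 (3.92% of all probes), which are shares near the background. Ckap5, a microtubule polymerase, was higher in C57 by 0.88 ± 0.10 (SE, limma adjusted p = 1.2e-07). Clip1, a plus-end tracking protein, was lower by 0.23 (limma adjusted p = 0.0181), though its second probe had the opposite sign. Dync2h1, the heavy chain of the dynein of cilia, was lower in C57 by 0.17 (-0.17, limma adjusted p = 0.0252). Tubb6, a beta tubulin, fell by 0.10 per week (limma adjusted p = 0.0311).

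Markers of the labelled tissue were high. Of 14 tested hepatocyte markers, 13 had a mean log2 level above 0, with a median of 1.03, and the mean of the list in each group lay between 0.31 and 1.32 on high-fat and between 0.42 and 1.11 on low-fat diet. Skeletal muscle markers were far lower, with 0 of 7 above 0 and a median of -1.41. Neuron markers, listed because KIF21A is rich in neurons, had a median of -0.41 with 2 of 8 above 0. Not all other lists were low: fat cell markers had a median of 0.13 with 2 of 3 above 0. Kidney markers had -0.12 with 2 of 4 above 0. Macrophage and leukocyte, stellate and endothelial, and bile duct markers had medians of -0.22, -0.09 and -0.02. Because the pool holds liver and the other tissues, such levels are relative to the pool and are no absolute amounts.

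Marker genes of other cell types had 0 members past the diet threshold in limma, which lists this short would give at the shares of all probes (0.177% in C57, 0.0295% in AJ). In C57 the median diet difference was -0.03 for 8 neuron, 0.12 for 4 macrophage and leukocyte, -0.10 for 4 stellate and endothelial, -0.08 for 3 fat cell, -0.01 for 4 kidney and 0.02 for 3 bile duct markers. In AJ the medians were 0.04, 0.09, -0.08, 0.04, 0.01 and 0.00 in the same order. Skeletal muscle markers lay below 0 for diet in 7 of 7 genes in each strain, with medians of -0.11 in C57 and -0.12 in AJ, and the mean of the list per group ran from -1.70 to -0.71 on high-fat and from -1.71 to -0.72 on low-fat diet. Hepatocyte markers had medians of 0.12 in C57 and -0.03 in AJ, and those in C57 moved to 0.06 without centring and -0.01 after quantile normalization. Whether these shifts have a part in the Kif21a difference was not tested. Between the strains, 3 of 14 hepatocyte markers were higher in C57 in limma and 2 lower, where 4.91% of all probes were higher and 3.16% lower. They were Alb, Trf, Ahsg, Fgb and Ass1. Of the other markers, Nefl (neuron) was higher in C57, and Tnnc2 (skeletal muscle) and Lpl (fat cell) were lower. The reason was not tested. The 7 red blood cell markers could not be tested.

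Among the 6 nearest measured genes on the chromosome, 0 passed for diet in limma, as the shares over all probes (0.177% in C57, 0.0295% in AJ) would give. In the RefSeq order they are Cpne8, Syt10 and Rabl2 on one side and Lrrk2, Smgc and Cntn1 on the other. Their diet differences lay between -0.13 and 0.08 in C57 and between -0.03 and 0.07 in AJ. For strain 1 of the 6 passed, where 8.07% of all probes did: Lrrk2, the gene of a large kinase linked to Parkinson's disease, was lower in C57 by 0.20 (-0.20 ± 0.05, SE, limma adjusted p = 0.0143), the opposite direction to Kif21a. Within groups their correlations with Kif21a were between -0.17 and 0.10.

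Within groups, after subtraction of each group's mean, Kif21a varied with an SD of 0.56 on the log2 scale, larger than that of 63.5% of probes (median 0.51). Without the 2 lowest arrays its SD was also 0.51. Which probes moved with it was described over 9054 probes that share at least 200 arrays with it. All of these values come from the same arrays against the same pool, so array-wide errors are shared. The correlations were weak: the 1st and 99th percentiles were -0.21 and 0.27, the median was 0.02, and 0 probes reached 0.5 in either direction.

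Scd1, a desaturase that converts stearate to oleate, followed Kif21a most closely, with r = 0.45 over 297 arrays. Mat1a, the liver enzyme that makes S-adenosylmethionine, came next with 0.42 over 295 arrays. Below them were Stra6, a retinol transporter (0.39), the membrane protein Tmem42 (0.38), and Hsd11b1, which regenerates active glucocorticoid (0.37). Mpped2, Col9a3, Nipal1, Mia and the kinase Dyrk1b completed the 10 highest, at 0.36, 0.36, 0.36, 0.35 and 0.35. None of the 10 is a kinesin or a tubulin. Only 29 other kinesin motors and 11 tubulins have a probe, against 9054 probes correlated, so nothing is read from this.

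At the other end the lowest correlation was that of Slc35b1, a nucleotide transporter of the endoplasmic reticulum, at -0.33 over 245 arrays. Lcn3, Phf10, Jpt1, Fendrr, Asb13 and Ddx24 lay between -0.30 and -0.29, and Abca14, 4930447C04Rik and Erg were at -0.28. Their levels were below the middle probe, with Slc35b1 at a mean log2 level of -0.75, Asb13 at -0.85 and Erg at -0.83. The highest followers had higher levels, with Mia at 0.97, Mat1a at 0.86 and Tmem42 at 0.65.

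Scd1 followed Kif21a in some groups much more than in others. On high-fat diet its r was above 0 in 8 of 8 C57 groups with enough arrays (median 0.78) and in 9 of 9 AJ groups (median 0.47). On low-fat diet it was above 0 in 5 of 8 C57 groups (median 0.33) and in 4 of 8 AJ groups (median 0.15). Pooled over groups, r was 0.55 in C57, 0.29 in AJ, 0.56 on high-fat diet and 0.34 on low-fat diet, and the differences between these values were not tested. As Spearman's rho it was 0.41, and without the 2 lowest arrays r was 0.41.

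**Figure D3:**
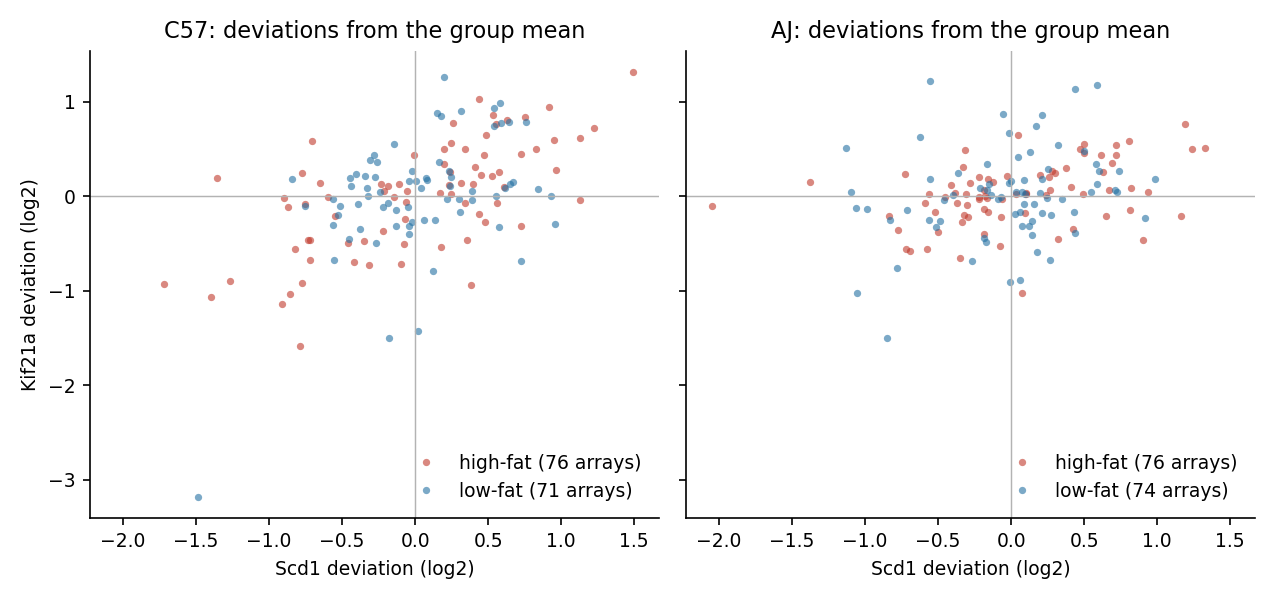
Deviation of Kif21a (vertical) against that of Scd1 (horizontal) from the mean of the array's own group, in log2 units, 1 point per array, for C57 (left) and AJ (right) on high-fat (red) and low-fat (blue) diet. The points rise together most clearly among C57 high-fat arrays; pooled over diets r is 0.55 in C57 and 0.29 in AJ.

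The probes with the highest r in 1 subset of arrays had a lower r in the other. The 10 probes with the highest r among C57 arrays had a median r of 0.47 there and 0.14 among AJ arrays, and 0 of 10 were past the AJ 99th percentile of 0.34. The 10 highest in AJ had a median of 0.42 there and 0.15 in C57. The 10 highest on high-fat diet had 0.47 there and 0.18 on low-fat diet, and the 10 highest on low-fat diet had 0.51 there and 0.03 on high-fat diet. Scd1 was ranked 1 among C57 arrays and 243 among AJ arrays, and Mat1a 2 and 464. Col9a3 was the most even of the 10, at 0.33 in C57 and 0.42 in AJ.

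Measures of the whole array had correlations with Kif21a between -0.14 and 0.20. Over 304 arrays its r was -0.02 with the number of measured probes, -0.14 with the array's median before centring, 0.13 with the spread of the array's log2 ratios and 0.20 with the array's correlation with the typical array. With the leading principal component of the within-group deviations r was 0.00, and with that component removed Scd1 had r = 0.45. Arrays with consecutive sample numbers in a group had r = 0.10 for Kif21a over 134 pairs, and 0.04 when the pairs were offset by 1 array. Over all probes the median of this r was -0.12 (quartiles -0.19 and -0.05) and, offset, -0.14 (upper quartile -0.06), so Kif21a lay above the upper quartile both times.

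Scd1 was also the tested follower with the clearest diet difference. Of the 9 tested highest followers, 1 passed for diet in limma in C57 (0.177% of all probes did) and 1 in AJ (0.0295%), in each case Scd1. Scd1 was higher on high-fat diet by 1.11 ± 0.19 in C57 (SE, limma adjusted p = 0.0052) and by 1.07 ± 0.19 in AJ (adjusted p = 0.0156). It was higher in C57 than in AJ by 0.61 ± 0.14 (adjusted p = 0.00281). The AJ diet difference of Scd1 did not pass without week 1, 4, 6, 10 or 11, nor with group medians. The Scd1 slope of 0.074 ± 0.032 per week did not pass. Hsd11b1 was lower in C57 by 0.18 (-0.18, limma adjusted p = 0.0406), opposite to Kif21a. The lowest followers had negative slopes in 7 of 7 tested probes, with Lcn3 (-0.10 per week, limma adjusted p = 0.0479) and 4930447C04Rik (-0.16, adjusted p = 0.0282) past the threshold. Over all probes 3.92% passed for slope and 48.7% of slopes were above 0.

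Over the 36 group means, which include the diet difference that chose Kif21a, the most alike patterns were those of Scd1 (r = 0.84), Epha8, an ephrin receptor (0.82), Fabp2, a fatty acid binding protein (0.81), Eif3f, a subunit of a translation initiation factor (0.78), and Cldn9, a tight junction claudin (0.70). The 99th percentile of 6779 probes was 0.54. The mean of each strain and diet was then taken out. The weekly departures from it remain, including changes of the diet difference from week to week. On these departures r was 0.66 for Scd1, 0.70 for Epha8, 0.68 for Fabp2, 0.68 for Eif3f and 0.70 for Cldn9. The 99th percentile was 0.64. These genes were picked by their r over the same group means, so nothing is read from their place against that percentile. Before this step the lowest were Fbxo32, a muscle ubiquitin ligase gene (-0.63), the kinase gene Vrk2 (-0.59) and 1700001L05Rik (-0.59). The within-group r of Epha8, Fabp2, Eif3f and Cldn9 was 0.20, 0.24, 0.23 and 0.15. Eif3f was higher on high-fat diet in C57 by 0.53 ± 0.10 (SE, limma adjusted p = 0.01) and differed by 0.13 in AJ. Epha8, Fabp2 and Cldn9 differed by 0.34, 0.39 and 0.31 in C57 and did not pass.

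Lipid genes other than Scd1 did not pass for diet, though several had positive values in both strains. Of 14 tested genes of fatty acid and triglyceride synthesis, Scd1 was the single gene past the diet threshold in limma, in C57 and in AJ, where 0.177% and 0.0295% of all probes passed. The median diet difference of the list was 0.04 in C57 and 0.06 in AJ, and its median within-group r with Kif21a was 0.06. Diet differences were above 0 in 9 of the 14 genes in each strain, where 49.7% of all probes were in C57 and 47% in AJ. Fasn, the fatty acid synthase, differed by 0.04 and -0.04, the desaturase Fads2 by 0.06 and 0.07, and Pnpla3, a lipase of lipid droplets, by -0.03 and 0.04. Chosen after their values were seen, the elongase Elovl5 differed by 0.47 in C57 and 0.46 in AJ, and Agpat2, an enzyme of triglyceride synthesis, by 0.31 and 0.20. Of 18 tested genes of fatty acid oxidation and ketone bodies, 0 passed for diet, with 16 above 0 in C57 (median 0.10) and 11 in AJ (median 0.06), where 49.7% and 47% of all probes were above 0. Among them, also chosen after their values were seen, Ppara, the fasting regulator of fat burning, differed by 0.51 and 0.44, the peroxisomal enzyme Ehhadh by 0.37 and 0.30, and Cyp4a14, a fatty acid hydroxylase, by 0.41 and 0.04. Within that list Acaa1a, a peroxisomal thiolase, was higher in C57 by 0.21 (limma adjusted p = 0.019), and the mitochondrial enzymes Acads and Acaa2 fell by 0.13 and 0.08 per week (adjusted p = 0.0404 and 0.0466).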

How the data were processed

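Per the labels, liver RNA (Cy5) and a pooled C57 reference (Cy3) were reverse transcribed, dye-labelled and hybridised to spotted arrays. The authors deposited 1 value per position and array, with image analysis, filtering and normalization not given in the sources used here. From the values, these deposited numbers are linear ratios of liver over reference with a mean of 1 per array; 42.4% are empty and 0.251% are below 0. Signal intensities are not used here, so the number of arrays limits the precision. Ratios of 0 or less counted as missing, log2 was taken with no pseudocount, and the array's median over tested probes was subtracted. Left out were week 0, week 8, 4 other arrays that correlated with the typical array below 0.15, and the second copy of 2 identical AJ high-fat pairs.

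Tested were 6780 of 14717 probes listed in the gene table, those with values on 70% or more of the arrays and on 3 or more in each group. Weekly group means were fitted with limma 3.58.1 in R 4.3.3, with 4 strain and diet levels and a term per week; the slope was fitted to the mean of the 4 levels in each of 9 weeks. P-values are two-sided, adjusted by Benjamini-Hochberg over all tested probes. The code was tested on simulated data. Correlations used deviations from group means. Genes named are Kif21a, the 10 highest and 10 lowest followers within groups, and the 5 highest and 3 lowest over group means. Named too are list members past a threshold, the 3 measured most often in a list, Kif21b, Scd1 and 3 neighbours on each side. Of the cell type marker lists, only members past a threshold are named. Elovl5, Agpat2, Ppara, Ehhadh and Cyp4a14 were named outside this rule, after their values were seen. Kif21a, the lists and the rules were chosen with earlier results of these data known. Sample numbers were checked for pairing: over 159 pairs of arrays on different diets with the same number, the correlation of deviations had a median of 0.005 and exceeded 0.1 in 45. Alternatives covered centring, pseudocount, filters, arrays and weeks.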

Additional observations from a re-analysis of the deposited data

How the results depend on the processing

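The Kif21a diet differences kept their sign and stayed within 1 SD over weeks under all 11 alternatives and with each week left out. The C57 value ranged from 0.75 to 0.88 and the AJ value from 0.52 to 0.66, and without single weeks from 0.72 to 0.90 and from 0.56 to 0.66. The slope passed the threshold under 0 of 9 alternatives (limma adjusted p from 0.0603 to 0.226) and without 0 of 9 weeks. The strain difference passed with group medians (0.29), quantile normalization (0.25) and single arrays taken as independent (0.22). It also passed without the 2 lowest arrays (0.25), a setting chosen after seeing the data. Over 11 alternatives the limma adjusted p ran from 0.00144 to 0.183, and without single weeks the value ran from 0.18 to 0.24. A filter asking for 90% of arrays could not test Kif21a.

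With the sample number as a replicate block on single arrays the strain difference was 0.23 (limma adjusted p = 0.0061). The numbers did not pair the samples, with the block 15.7% of probes passed for strain, 1.15% for diet in C57 and 0.236% in AJ, against 17.1%, 1.53% and 0.147% on single arrays without it. With all arrays of weeks 1 to 11 the shares were 4.53% for strain, 0.0787% and 0% for diet, and 0.0787% for the slope, over 2541 probes. The 90% filter gave 12.5% for strain. For AJ diet, group medians gave 0.0147% and quantile normalization 0.059%. For the slope, no centring gave 2.30%, quantile normalization 7.83%, and leaving out arrays under 8000 probes 5.99%. Without single weeks the shares were 0.059% to 0.236% for diet in C57, 0% to 0.0295% in AJ and 0% to 8.54% for the slope. The cause was not tested.

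The r of Scd1 within groups moved most in subsets: 0.55 in C57, 0.29 in AJ, 0.56 on high-fat and 0.34 on low-fat diet. For the other 19 named followers, 211 of 247 values moved by less than the SD of all probes' r, 35 by more, and 1 changed sign, 4930447C04Rik at 0.107 with consecutive arrays averaged. Membership of the lists was less stable. Of the 10 highest, 8 stayed among the 10 highest without centring and 3 after quantile normalization. By Spearman's rho 4 stayed, without the 2 lowest arrays 4, and with consecutive arrays averaged 0. Of the 10 lowest, 4, 2, 5, 6 and 2 stayed in the same order of settings.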
